A study of Mus musculus with 8 samples.

Results

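The microglia that the authors' clustering placed in the cluster named Activated were examined in the 4 Rag1-/- libraries of the series. Of 7430 Rag1-/- microglia, 326 carried this name, 27 from the gray matter library and 112, 100 and 87 from white matter libraries 1, 2 and 3. The 4 libraries held 20905 cells of all types, sorted as live cells from brains of 24-month-old mice on the 10x 3′ platform. The mice carry the Rag1tm1Mom null allele, so that mature T and B cells do not form. The labels give their strain as NOD.129S7(B6)-Rag-1tm1Mom/J, whereas the study's methods describe a C57BL/6J background. Gray matter was dissected from the frontal cortex, and white matter from the corpus callosum, optic tract and medial lemniscus. Batch 1 held gray matter and white matter library 1, and batch 2 held white matter libraries 2 and 3. The list of mice names the same 2 pooled animals for both libraries of batch 1 and 1 animal for each library of batch 2, whereas the protocol text has 2 tissue samples combined for each library. All dissociations contained actinomycin D, a blocker of transcription.

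Microglia are the resident macrophages of the brain. In their resting state they express a set of genes that includes P2ry12, Tmem119 and Cx3cr1, and upon stimulation they release chemokines such as CCL3 and CCL4 and the cytokine IL-1β. The genes Ccl3, Ccl4 and Il1b were the markers given for the Activated cells. In aged white matter, a further state known as white matter-associated microglia (WAM) expresses genes of lipid handling and phagocytosis. Activated cells were compared within each library with Homeostatic cells (the authors' clusters Homeostatic1 and Homeostatic2, 5841 cells) and with WAM (1180 cells). The clusters were drawn on the expression of these very cells, so the contrasts between clusters are descriptions without a test.

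Library depth ranged from 25790692 to 57899352 unique molecular identifiers (UMIs, each standing for 1 captured transcript). Activated cells contributed 150233 UMIs in gray matter, with 574696, 312646 and 314798 UMIs in white matter libraries 1, 2 and 3. No barcode was shared between Activated cells of different libraries. Rag1 gave 37 to 108 UMIs per library over all cells and 0, 1, 0 and 1 in the Activated cells. Reads at the 3′ end of the transcript can lie outside the deleted part of the gene, so these counts do not test the genotype.

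The defining markers of microglia were present in Activated cells. Those of other brain and blood cells were low, apart from oligodendrocyte markers in white matter libraries 2 and 3. The 10 microglial markers summed to 41090 to 47000 CPM (the UMIs of a class in a library, scaled to a common total), against 51300 to 54992 CPM in Homeostatic cells and 42043 to 46663 CPM in WAM. C1qa, a complement subunit made by microglia, was at 9119, 10174, 10222 and 9126 CPM in gray matter and white matter libraries 1, 2 and 3. Of the 10 lymphocyte markers, 8 gave no UMI in Activated cells, including Cd3d, Cd3e, Trbc2, Cd79a and Ms4a1. Of the 7 markers of border macrophages, Cd163, Lyve1, F13a1 and Cbr2 gave no UMI, and the list summed to 46.6, 1.74, 9.596 and 6.35 CPM, against 13.1, 6.04, 7.58 and 3.81 CPM in Homeostatic cells. Monocyte markers summed to 0 to 5.22 CPM, neuronal markers to 0 to 13.3 CPM and endothelial markers to 9.53 to 33.3 CPM. Neutrophil markers summed to 44.8 to 146 CPM, below the 176 to 219 CPM of Homeostatic cells. Astrocyte markers summed to 129 to 176 CPM in Activated and 170 to 307 CPM in Homeostatic cells, whereas the median log2 ratio of the 8 genes was 0.74, 0.77, 0.72 and 0.62. Of these, Gfap was counted as at least 2-fold higher in each library from 6 Activated UMIs, and Aldoc had a ratio of 1.23 ± 0.63 from 18 UMIs. With a pseudocount in proportion to the class totals, the library medians were 0.47, -0.44, 0.53 and 0.43. The median over genes of the mean ratio of the 4 libraries was then -0.21. Oligodendrocyte markers, of which none was at 0, summed to 293, 364, 1494 and 2198 CPM in Activated cells and to 421, 468, 1051 and 1922 CPM in Homeostatic cells of the same libraries.

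The given markers did not set Activated cells above WAM. Activated is therefore used below as the name of the authors' cluster, without reading it as a state. Ccl3 was at 59.9 CPM in the gray matter library and at 59.2, 25.6 and 152 CPM in white matter libraries 1, 2 and 3. In WAM of the same libraries, Ccl3 was at 270, 1071, 1039 and 919 CPM, and in Homeostatic cells it was at 11.7, 26.3, 20.7 and 35.9 CPM. The Activated level of Ccl3 was therefore below WAM in all 4 libraries and above Homeostatic cells in all 4, with the narrowest margin in white matter library 2. Against Homeostatic2 alone, Ccl3 was lower in white matter library 2 (log2 ratio -0.29). It was higher in gray matter (1.64) and in white matter libraries 1 and 3 (1.02 and 2.26). In white matter library 3, 33 of its 48 Activated UMIs came from 1 cell.

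Ccl4, which encodes a chemokine that attracts leukocytes, was at 19.97, 103, 44.8 and 200 CPM in Activated cells. Homeostatic cells held 7.14, 15.3, 6.996 and 19.9 CPM and WAM 427, 1358, 1658 and 1506 CPM. The mean log2 ratio of Ccl4 was 2.62 ± 0.68 (SD, n = 4 libraries) against Homeostatic cells and -3.99 ± 0.95 against WAM. With total UMIs as the scale, Ccl4 alone of the 3 markers exceeded Homeostatic cells by at least 2-fold in each library, and all 3 were lower than in WAM by at least 2-fold in each library. Against Homeostatic2 alone, Ccl4 was lower in gray matter (log2 ratio -1.56, from 3 Activated UMIs and 29 Homeostatic2 cells) and higher in white matter (2.64, 2.63 and 3.14). After each cell was thinned to 1000 UMIs, Ccl4 was at 2.99, 3.10, 4.36 and 0.69 against Homeostatic cells and no longer passed the limit, since white matter library 3 fell short of it. It stayed at least 2-fold below WAM in each library, as did Ccl3.

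Il1b gave 4 UMIs in 4 of the 326 Activated cells, at 0, 1.74, 6.40 and 3.18 CPM in gray matter and white matter libraries 1, 2 and 3. Its level in WAM was 88.3, 57.6, 17.8 and 48.1 CPM, and the mean log2 ratio against WAM was -3.44 ± 1.62 (SD, n = 4). Against Homeostatic cells, which held 2.68 to 5.33 CPM, the ratio was 0.04 ± 0.73 and took no common direction. With TMM factors (the scaling of edgeR for composition, in place of total UMIs), Il1b was no longer 2-fold below WAM in white matter library 2 (-0.70), nor was it after thinning to 1000 UMIs (0.31). Thinning also left 2 Activated Il1b UMIs, in white matter libraries 1 and 2, and counted the gene as at least 2-fold higher than in Homeostatic cells, which at such counts reflects the pseudocount.

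A small number of cells held most of the chemokine transcripts. Ccl4 gave 139 UMIs in 23 of the 326 Activated cells, and the 5 cells with the most UMIs held 97 of them (69.8%), of which 49 came from a single cell of white matter library 3. Ccl3 gave 99 UMIs in 34 cells, with 54 UMIs in the top 5 cells. Among WAM, 434 of 1180 cells held a Ccl4 UMI and 528 held a Ccl3 UMI, and the top 5 held 17.0% and 23.4% of the UMIs. Where WAM were few, they were concentrated too. In white matter library 2, the top 5 of 121 WAM held 68.3% of Ccl4 and 70.6% of Ccl3 UMIs. There the top 5 of 100 Activated cells held 85.7% and 87.5%. In gray matter, with 27 cells in each class, the shares were 80.5% and 76.4% in WAM and 100% for both genes in Activated cells.

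Because cells of the clusters differed in depth, each cell was also thinned to 1000 UMIs. A Ccl3 UMI was then found in 4.00% of Activated cells in gray matter (1 of 25) and in 9.01%, 3.09% and 6.098% in white matter libraries 1, 2 and 3. The corresponding shares were 1.33% to 2.75% in Homeostatic cells, 19.2% to 23.0% in WAM and 0.0665% to 0.186% in oligodendrocytes, which should lack the transcript. For Ccl4, 4.00%, 5.41%, 4.12% and 2.44% of Activated cells held a UMI, compared with 0.217% to 1.83% of Homeostatic cells and 17.5% to 29.6% of WAM. An Il1b UMI was found in 0 of 25 cells in gray matter, which allows a share of up to 12%, and in 1 of 111 and 1 of 97 cells in white matter libraries 1 and 2. White matter library 3 gave 0 of 82 cells, which allows up to 3.66%. These limits concern cells with a captured Il1b UMI at this depth, not cells that express the gene. Oligodendrocytes gave an Il1b UMI in at most 1 cell per library, 0.0949% in gray matter. Before thinning, the mean of the 4 libraries was 11.8% for Ccl3, 6.98% for Ccl4 and 1.01% for Il1b, at median depths of 2287 to 5865 UMIs per Activated cell and 8669 to 12534.5 UMIs per oligodendrocyte. At 1000 UMIs, the shares for Ccl3 and Ccl4 lay between those of Homeostatic cells and WAM in every library, but the order against Homeostatic cells depended on depth. At 2000 UMIs, Ccl3 was found in 3.39% of Activated cells of white matter library 3 (2 of 59) and in 5.74% of Homeostatic cells. Without thinning, Ccl3 was at 6% against 8.88% in white matter library 2 and at 9.195% against 11.7% in white matter library 3, where Ccl4 was at 4.60% against 7.05%.

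**Figure D1:**
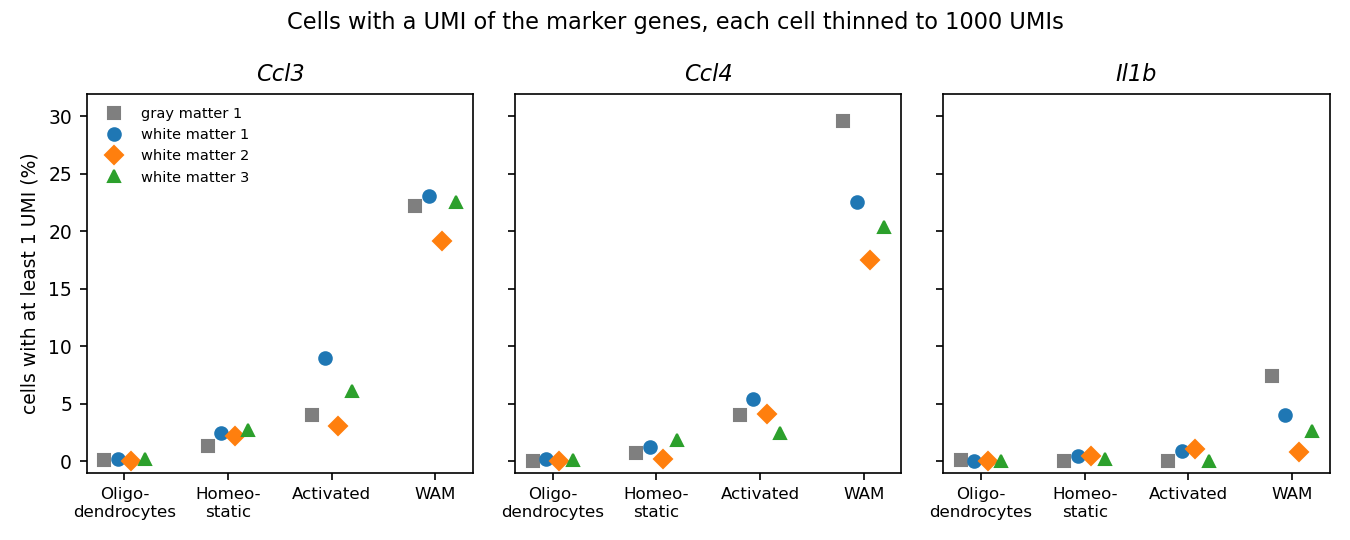
Share of cells with at least 1 UMI of Ccl3, Ccl4 and Il1b (y axis, percent) in oligodendrocytes, Homeostatic cells, Activated cells and WAM after each cell was thinned to 1000 UMIs, with 1 symbol per library. Activated cells sit between 3.09% and 9.01% for Ccl3, above Homeostatic cells at this depth (at 2000 UMIs, white matter library 3 had 3.39% against 5.74%) and below WAM, which sit between 19.2% and 23.0%.

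Ribosomal protein genes made up 31 of the 152 genes that were at least 2-fold higher in Activated than in Homeostatic cells in each library. Among the 41 of these with at least 20 CPM in the higher class, a filter chosen after seeing the data, they were again 31. Proteins of the cytosolic ribosome are encoded by abundant short transcripts that together make up a large part of cellular mRNA. All 77 measured members of this list were higher in Activated than in Homeostatic cells in each of the 4 libraries, and 31 were at least 2-fold higher in each. Of all genes with at least 50 CPM, 15.03% were above 0 in all 4 libraries, and of all genes tested, 10.2% were above 0 and 1.19% at least 2-fold higher. With TMM factors 75 of the 77 were at least 2-fold higher in each library, and against Homeostatic2 alone 0 were. Without white matter library 1 the number was 62, and it was 31 or 32 when another library was left out. The list took 22.5% of the UMIs of Activated cells in gray matter, with 26.3%, 30.1% and 29.7% in white matter libraries 1, 2 and 3. Homeostatic cells of the same libraries gave 9.57%, 13.2%, 13.7% and 13.4%, and WAM gave 10.7%, 15.5%, 17.4% and 18.04%. Groups did not overlap: the lowest Activated library exceeded the highest library of either other class.

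At the level of single genes, Rps4x, a component of the small subunit, was at 4879, 5015, 5386 and 5130 CPM in Activated cells and at 1712, 2347, 2167 and 2181 CPM in Homeostatic cells. Its mean log2 ratio was 1.29 ± 0.17 (SD, n = 4), and that of Rps19, also of the small subunit, was 1.28 ± 0.14. Rpl39 of the large subunit followed with 1.26 ± 0.12 and Rps24 with 1.25 ± 0.17. Expression of Rps4x was thus uniform over the 4 libraries in Activated cells, and the gray matter library had the lowest Homeostatic value.

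Across single cells, the ribosomal share was high in nearly all members of the cluster. The median share per cell was 22.2%, 25.6%, 29.1% and 27.8% of UMIs in gray matter and white matter libraries 1, 2 and 3. All 27, 111 of 112, all 100 and all 87 Activated cells lay above the Homeostatic median of their library (8.53%, 11.8%, 12.6% and 11.8%). Between 77.7% and 86.2% of Activated cells also lay above the 95th percentile of the Homeostatic cells of their library, compared with 7.41% to 27.9% of WAM. Single Activated cells ranged from 11.3% to 60.1%.

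The ribosomal share was also read in cells of similar depth. Among cells of 2000 to 4000 UMIs, a window chosen after the data were seen, the median share was 29.2%, 28.9%, 30.8% and 28.1% in Activated cells (5, 33, 38 and 29 cells). Homeostatic cells in the same window gave 7.01%, 9.55%, 19.1% and 10.6%. WAM gave 14.5%, 24.5% and 20.2% in white matter libraries 1, 2 and 3 (90, 15 and 36 cells) and had no cell in this window in gray matter. Activated cells thus kept the highest median in each library, with the narrowest margin over WAM in white matter library 2.

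Over all 12821 genes with at least 20 UMIs in both classes together, 152 (1.19%) were at least 2-fold higher and 420 (3.28%) at least 2-fold lower in Activated than in Homeostatic cells in each library. With TMM factors in place of total UMIs, the split was 505 higher and 57 lower. The count of higher genes includes 9 genes without a single Activated UMI and 77 with 1 to 3 UMIs, which pass because the pseudocount weighs more in the smaller Activated totals. Among the 6394 genes that passed the 20 CPM filter, 41 (0.641%) were higher and 301 (4.71%) lower. The 41 comprised the 31 ribosomal protein genes and 10 others. Against Homeostatic2 alone, which had a ribosomal share of 13.2% to 15.9%, 6 genes were higher in each library (Tpm2, Htra1, Aldoc, Rhobtb3, Mocos and Gprasp2, named after their values were seen) and none of them was a ribosomal protein gene, while the median log2 ratio of the ribosomal list was 0.86.

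The median log2 ratio of all genes against Homeostatic cells was -0.09 in gray matter, with -0.47, -0.63 and -0.56 in white matter libraries 1, 2 and 3, and TMM factors moved the median over the mean of the libraries from -0.51 to 0.03. Relative to the median of all genes, the ribosomal list stood 1.33, 1.44, 1.77 and 1.70 higher. Since the clusters were drawn on these genes, the ribosomal levels are a description of the cluster.

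Of the 10 genes outside the list of ribosomal proteins, 3 belonged to the list of translation genes. Tpt1, which encodes the translationally controlled tumor protein, was at 6949, 6684, 8572 and 8532 CPM in Activated cells and at 2665 to 3821 CPM in Homeostatic cells (log2 ratio 1.19 ± 0.15). Fau, which encodes a ribosomal protein as a fusion to a ubiquitin-like protein, reached 1.18 ± 0.08. Of the 20 genes of the translation list, 3 were at least 2-fold higher in each library (1.19% of all genes), and 18 were above 0 in all 4 (10.2% of all genes). With TMM factors 12 of the 20 were at least 2-fold higher, and against Homeostatic2 alone 0 were. The pseudogene Rpl9-ps6 can share reads with Rpl9, so its ratio of 1.23 is uncertain, and 1110038B12Rik had a ratio of 1.24 ± 0.17.

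The ferritin genes were also higher. Fth1, the heavy chain of the iron store ferritin, was at 5984, 10299, 11150 and 12688 CPM in Activated cells and at 2984, 5012, 4593 and 5030 CPM in Homeostatic cells, a log2 ratio of 1.16 ± 0.17. Ftl1, the light chain, had a ratio of 1.16 ± 0.07. Against Homeostatic2 alone, Fth1 was at 0.32, 0.87, 0.96 and 1.02 and no longer passed the 2-fold limit. After thinning to 1000 UMIs it did not pass either, with 0.93 in gray matter. Against WAM, Fth1 showed no common direction, with a ratio of -0.01 ± 0.21.

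Lgals3, which encodes the lectin galectin-3, had the largest mean ratio among the 41 genes, 2.99 ± 1.55 (SD, n = 4). This rank rested on the gray matter library, where Lgals3 was at 5.22 and Ccl4 at 1.70. In white matter libraries 1, 2 and 3, Lgals3 was at 1.67, 2.76 and 2.31 and Ccl4 at 2.75, 2.70 and 3.33. Lgals3 was at 13.3, 64.4, 70.4 and 44.5 CPM in Activated cells and at 0.397, 20.5, 10.5 and 9.18 CPM in Homeostatic cells, and only 75 UMIs over the 4 libraries stand behind it. Wfdc17, a gene of a small secreted protein, was at 19.97, 115, 35.2 and 63.5 CPM against 2.38 to 18.3 CPM, a ratio of 2.56 ± 0.54. Both depend on the Homeostatic cluster taken: against Homeostatic2 alone, the ratio was 1.25 for Lgals3 and 0.72 for Wfdc17, and against Homeostatic1 alone it was 5.01 for both. In WAM, Lgals3 was far more abundant, at 73.6, 528, 529 and 524 CPM.

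Other measures of RNA composition moved together with the ribosomal share. Malat1, a long noncoding RNA retained in the nucleus, was at 18425, 10238, 2034 and 3539 CPM in Activated cells, against 31793, 27150, 27244 and 27174 CPM in Homeostatic cells and 28621, 19710, 17385 and 16540 CPM in WAM. It was lower in Activated cells of all 4 libraries and lowest in both libraries of batch 2. Activated cells held a median of 2027, 1392, 805 and 976 genes, compared with 2233 to 2724 genes in Homeostatic cells. At an equal 1000 UMIs per cell, the medians were 584, 524, 451 and 474 genes in Activated cells, 641 to 682 in Homeostatic cells and 553.5 to 672 in WAM. Thinning left out 2, 1, 3 and 5 Activated cells of fewer UMIs. The mitochondrially encoded genes took 2.82%, 3.37%, 3.65% and 4.11% of Activated UMIs and 2.42% to 2.90% of Homeostatic UMIs. The part of these measures in the ribosomal result was not tested.

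**Figure D2:**
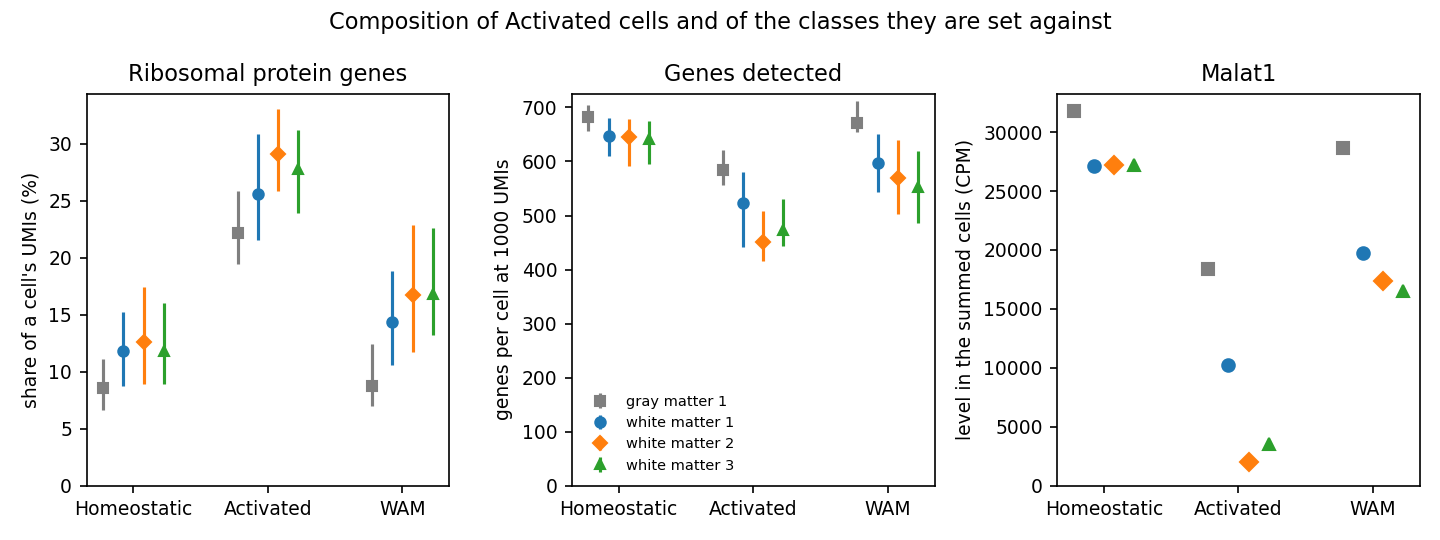
Left, share of a cell's UMIs in ribosomal protein genes (percent, median with interquartile range); middle, genes detected per cell at 1000 UMIs (median with interquartile range); right, Malat1 level in the summed cells (CPM); 1 symbol per library. In each library, Activated cells have the highest ribosomal share, the fewest genes at equal depth and the lowest Malat1 level of the 3 classes.

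Of the 20 genes of the resting microglial state, Cx3cr1 and Sall1 were at least 2-fold lower in Activated than in Homeostatic cells in each library, against 3.28% of all genes. With TMM factors, and also against Homeostatic2 alone, no gene of the list passed this limit. The log2 ratio was below 0 in all 4 libraries for 19 of the 20, compared with 38.7% of all genes and 53.5% of genes with at least 50 CPM. The exception was Cst3, which encodes the protease inhibitor cystatin C (-0.03, 0.07, 0.52 and 0.24). The medians of the list were -0.83, -0.60, -1.41 and -1.29, and relative to the median of all genes they were -0.74, -0.13, -0.77 and -0.73. Cx3cr1, the receptor of the neuronal chemokine fractalkine, was at 1924, 1255, 1024 and 845 CPM in Activated cells and at 3947, 2995, 4998 and 4578 CPM in Homeostatic cells (log2 ratio -1.75 ± 0.71, n = 4). Sall1, a transcription factor of microglial identity, had a ratio of -1.44 ± 0.34. With TMM factors the mean ratio was -1.22 for Cx3cr1 and -0.91 for Sall1. P2ry12, a purinergic receptor, was at 1724, 1215, 534 and 677 CPM against 3298, 1883, 2243 and 2222 CPM. Against WAM, no gene of the list differed by 2-fold in each library, and the medians were -0.30, 0.37, -0.07 and 0.04.

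Among further genes counted as lower in each library were P2rx7, Icam1, Cmya5 and Kcnq1ot1. P2rx7, an ATP-gated channel that triggers release of IL-1β, had a ratio of -1.63 ± 0.36, and Icam1, an adhesion molecule induced by NF-κB, one of -1.67 ± 0.54 from 33 Activated UMIs. Neither was 2-fold lower in each library with TMM factors, where P2rx7 was at -0.78 and Icam1 at -0.81 in white matter library 1. Ccr2 was counted as lower but gave 1 Activated UMI, and its sign depended on the pseudocount. For Cmya5, at 16.5 to 30.6 CPM in Homeostatic cells, no UMI was seen in 326 Activated cells, so that its level was at least 9.00-fold lower when 3 counts over the 4 libraries are taken as the floor. Kcnq1ot1, a nuclear noncoding RNA, was at 79.9, 40.0, 3.20 and 28.6 CPM against 197 to 215 CPM (log2 ratio -2.95 ± 1.72). A level of 20 CPM corresponds to about 3 expected UMIs in the gray matter library, which sets the counting error of these low genes.

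Lists of stimulated genes held few members past the 2-fold limit against Homeostatic cells. Among 23 measured NF-κB genes, 0 were higher and 1 was lower (Icam1), among 15 genes of the IL-1 pathway 1 was lower (P2rx7), and among 11 cytokine genes none passed in either direction. One of 24 immediate early genes, Nr4a1 with 4 Activated UMIs, was counted as higher. Of 8 chemokine receptors, 3 were lower, Cx3cr1 among them, and of 10 chemokines Ccl4 was higher. After thinning to 1000 UMIs, 0 of 9 chemokines were higher. With TMM factors, 0 genes of the NF-κB, IL-1 pathway and chemokine receptor lists were lower, and 4 chemokines, 1 IL-1 pathway gene and 1 cytokine were higher. Without the gray matter library, 5 NF-κB, 3 immediate early and 2 interferon response genes were lower, and 0, 1 and 0 were higher. With a pseudocount in proportion to the class totals, 3 genes of each of these lists were lower and 0 higher. No heat shock gene of 12, no interferon response gene of 23, no MHC class II gene of 6 and no cell cycle gene of 9 differed by 2-fold in each library. Of 28 genes of the disease- and white matter-associated list, Fth1 and Lgals3 were higher. The background over all genes was 1.19% higher and 3.28% lower in the main setting (152 and 420 genes). It grew to 1217 lower genes without the gray matter library and 1619 with the proportional pseudocount, where 97 and 45 were higher. With TMM factors, 505 genes were higher and 57 lower. Counts of the lists under these settings are to be read against these numbers.

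**Figure D3:**
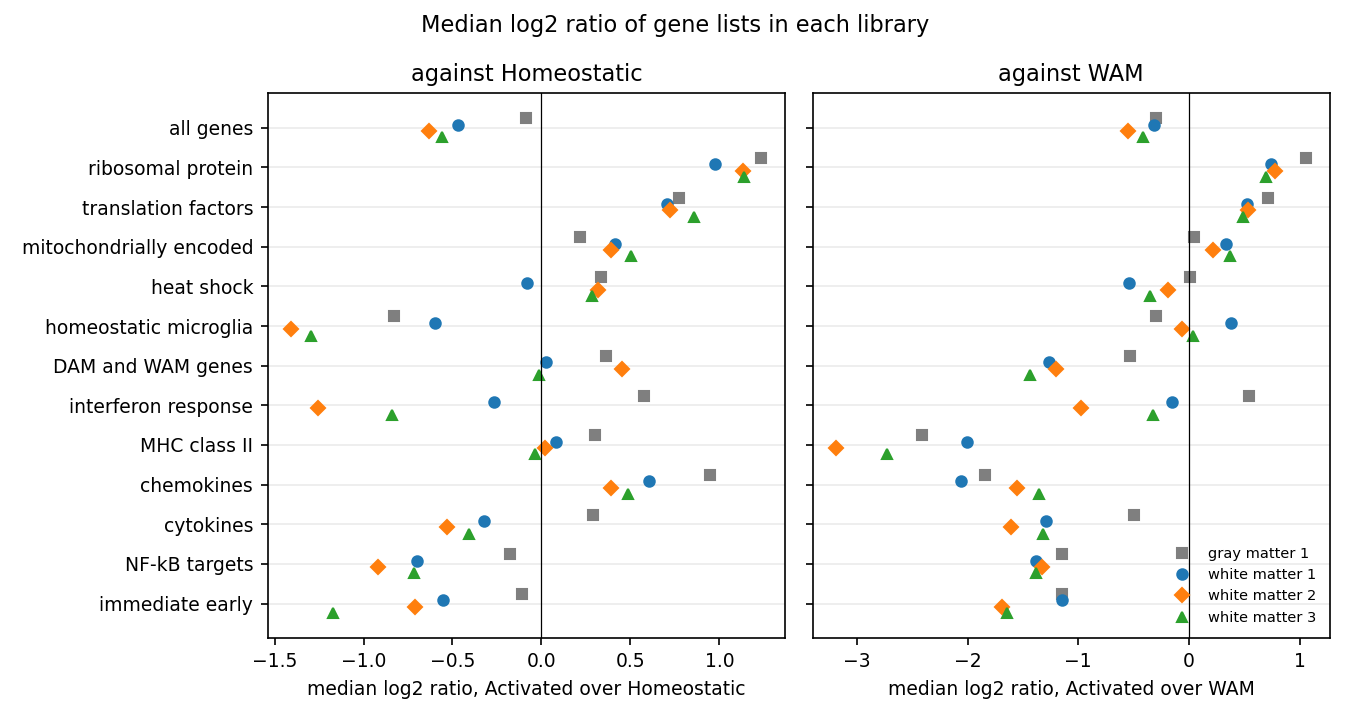
Median log2 ratio of each gene list (x axis) in Activated over Homeostatic cells (left) and over WAM (right), with 1 symbol per library and the median of all genes in the top row. Ribosomal protein genes lie at 0.98 to 1.24 against Homeostatic cells and at 0.69 to 1.06 against WAM, while the chemokine, NF-κB and MHC class II medians against WAM lie below -1 in each library.

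Against WAM, genes lower in Activated cells outnumbered higher ones. Of 10860 genes, 12 (0.11%) were at least 2-fold higher and 305 (2.81%) at least 2-fold lower in each library, and with TMM factors 65 were higher and 114 lower. The median of all genes was -0.30, -0.32, -0.55 and -0.42. In the gray matter library, the WAM sum rests on 27 cells.

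Genes by which WAM are known were among the lower ones. Lpl, the lipoprotein lipase, was at 0, 57.4, 96.0 and 50.8 CPM in Activated cells and at 53.9, 1070, 1515 and 1210 CPM in WAM (log2 ratio -4.19 ± 0.25). Spp1, which encodes the secreted protein osteopontin, was at 0, 59.2, 15.99 and 19.1 CPM against 24.5, 2283, 2186 and 2209 CPM (-5.49 ± 1.82). Of 29 genes of the disease- and white matter-associated list, 7 were at least 2-fold lower in each library (2.81% of all genes), none was higher, and 19 were below 0 in all 4 (32.2% of all genes). The 7 were Ank, which did not pass with TMM factors, Axl, Cd74, Csf1, Lgals3, Lpl and Spp1, of which Axl, a receptor for phagocytosis, had a ratio of -1.90 ± 0.13. For Lpl, Spp1 and Axl, none of which gave a UMI in gray matter Activated cells, the WAM levels were also lower in gray than in white matter.

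MHC class II genes were also among the lower ones. Cd74, the invariant chain of MHC class II, was at 79.9, 164, 253 and 165 CPM in Activated cells and at 515, 597, 1290 and 936 CPM in WAM (-2.33 ± 0.34). H2-Aa, H2-Ab1 and H2-Eb1 were the other 3 of 6 class II genes that were lower in each library, against 2.81% of all genes, none was higher, and the medians were -2.41, -2.01, -3.19 and -2.72.

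Lists of acute stimulation also held genes below WAM, where 2.81% of all genes were at least 2-fold lower. Of 24 NF-κB genes, 9 were lower in each library and none was higher, and the medians were -1.14, -1.38, -1.33 and -1.38. With TMM factors, 5 NF-κB and 3 immediate early genes were lower in each library, against 114 of all 10860 genes. Cd83, a surface protein of stimulated antigen-presenting cells, was at 59.9, 47.0, 35.2 and 25.4 CPM against 280, 271, 237 and 184 CPM (-2.53 ± 0.27). Among 25 immediate early genes, 6 were lower, including Atf3, a stress-induced transcription factor (-3.24 ± 0.21). Egr1 gave no UMI in Activated cells and was at least 27.8-fold lower, against 14.7 to 72.1 CPM in WAM. Tnf, the cytokine tumor necrosis factor, gave no UMI either and was at least 14.4-fold lower.

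Of 12 measured chemokine genes, 5 were lower, namely Ccl3, Ccl4, Ccl6, Cxcl10 and Cxcl14, of which Ccl6 and Cxcl14 did not pass with TMM factors. Ccl6 was at 120, 205, 272 and 324 CPM against 368, 604, 729 and 663 CPM (-1.39 ± 0.26). No ribosomal protein gene passed the 2-fold limit against WAM in every library, but all 77 were above 0 in all 4, with medians of 1.06, 0.74, 0.77 and 0.69. Above 0 in all 4 libraries were 5.55% of all genes and 13.1% of genes with at least 50 CPM. With TMM factors, 32 of the 77 were at least 2-fold higher than in WAM in each library.

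Among 6066 genes with at least 20 CPM in the higher class, 5 (0.0824%) were higher and 207 (3.41%) lower than in WAM. The 5 were Crybb1, 2610528A11Rik, Gbp7, Gng10 and Lst1. After thinning to 1000 UMIs, Crybb1, Gbp7, Gng10 and Lst1 were above 0 in all 4 libraries but under 2-fold in gray matter. Lst1 was then also under 2-fold in white matter library 2 (log2 ratio 0.88). Crybb1, a crystallin gene expressed in resting microglia, was at 566, 277, 198 and 181 CPM in Activated cells and at 265, 63.9, 32.8 and 38.7 CPM in WAM (2.01 ± 0.64). Its Homeostatic level was 536, 189, 253 and 265 CPM, and the ratio of -0.06 ± 0.49 against those cells took no common direction. Gng10, a G-protein subunit, was at 905, 987, 1011 and 924 CPM against 343 to 414 CPM in WAM (1.36 ± 0.16). Thus Crybb1 was near its Homeostatic level in Activated cells, whereas Gng10 was above both other classes in all 4 libraries.

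The share of Activated cells was compared between tissues, whose labels played no part in how the members were chosen. Membership rests on expression, so the shares are not independent of expression differences between the tissues. Activated cells made up 1.56% of the microglia in gray matter (27 of 1732, exact 95% interval 1.03% to 2.26%). In white matter libraries 1, 2 and 3 they made up 3.10% (112 of 3617, 2.56% to 3.71%), 14.0% (100 of 712, 11.6% to 16.8%) and 6.36% (87 of 1369, 5.12% to 7.78%). The intervals cover counting error only. The mean of white matter was 7.83% ± 5.62 (SD, n = 3), and all 3 white matter libraries were above the gray matter library. Within batch 1, from the same mice, the shares were 1.56% and 3.10%.

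In edgeR's quasi-likelihood test on cell numbers, the share was higher in white matter by 2.30 ± 0.86 (log2, SE; adjusted p = 0.0390 over 5 clusters). The fit had no batch term and no pairing of the mice shared within batch 1. White matter libraries 2 and 3 came from batch 2, which had no gray matter, so the difference mixes tissue with batch. With 1 gray matter library, the spread between libraries comes from white matter. Its estimate is shared over the 5 clusters, whose cell numbers sum to the library total. The exact permutation test (two-sided) gave p = 0.50, and 1 against 3 libraries cannot go below 0.25. The call was lost when any white matter library was left out, with adjusted p of 0.126, 0.105 and 0.130 without library 1, 2 and 3. TMM scaling of these numbers gave a difference of -0.0305.

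**Figure D4:**
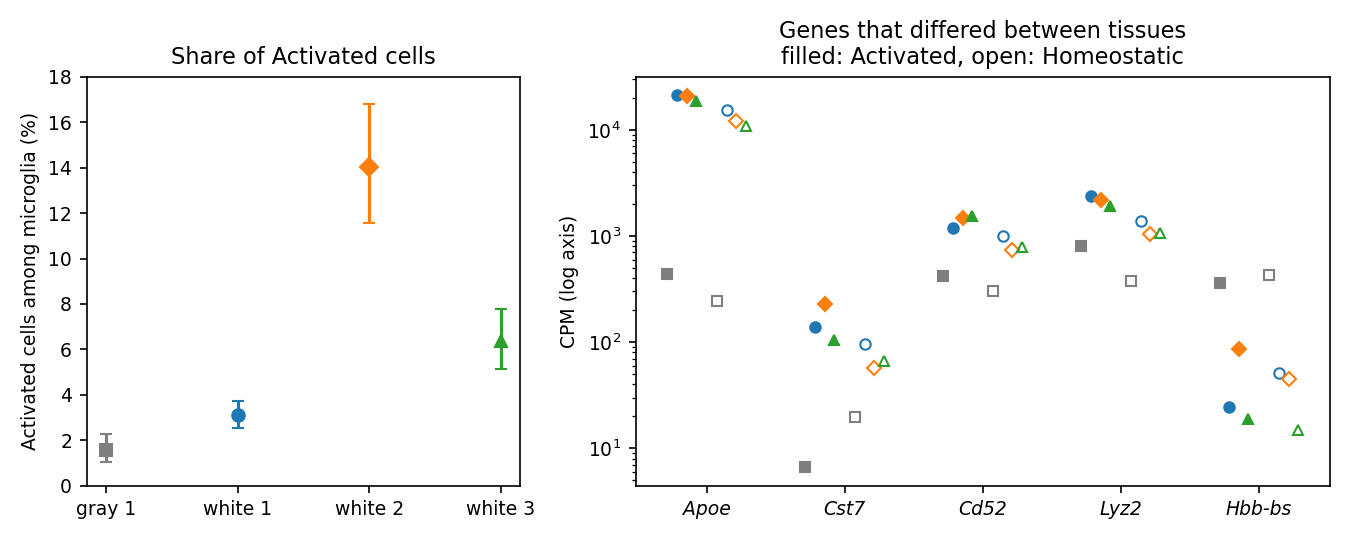
Left, Activated cells as a share of microglia (percent, exact 95% interval) in each library; right, CPM on a log axis of the 5 genes that differed between white and gray matter in Activated cells (filled) beside Homeostatic cells of the same libraries (open). Shares run from 1.56% in gray matter to 14.0% in white matter library 2, and Apoe is higher in white matter in both classes, of which the Homeostatic class holds 29 Homeostatic2 cells in gray matter and 225 to 1884 in white matter.

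Within Activated cells, 4 genes were higher and 1 was lower in white than in gray matter, of 4685 genes tested in edgeR's quasi-likelihood test at an adjusted p under 0.05 (0.0854% and 0.0213% of the genes). The gray arm is 1 library of 27 Activated cells without a replicate, and the tissue cannot be told apart from that library. The spread comes from white matter, and edgeR shares its estimate across genes. Apoe, which encodes the lipid carrier apolipoprotein E, was at 439 CPM in gray matter, whereas the white matter libraries held 21081, 20608 and 18542 CPM (difference of 5.94 ± 0.54 on the log2 scale, SE, with adjusted p = 4.34e-07). Cst7, the protease inhibitor cystatin F, was at 6.66 CPM against 139, 230 and 105 CPM (4.90 ± 0.91, adjusted p = 0.0265). Both were higher in 3 of 3 white matter libraries.

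Cd52, a glycoprotein of the leukocyte surface, was at 419 CPM in gray matter compared with 1178, 1468 and 1537 CPM in white matter (2.18 ± 0.40, adjusted p = 0.0265, edgeR). Lyz2, lysozyme of myeloid cells, was at 812 CPM and at 2382, 2162 and 1925 CPM (1.84 ± 0.37, adjusted p = 0.0427). The gene lower in white matter was Hbb-bs, a beta globin of red blood cells, at 359 CPM and at 24.4, 86.4 and 19.1 CPM (-2.68 ± 0.52, adjusted p = 0.0385). Homeostatic cells of the gray matter library also held the most Hbb-bs, 431 CPM against 14.7 to 51.7 CPM, so that red cell RNA moved with the library.

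These counts depended on single libraries and on batch. Without white matter library 3 no gene was called (edgeR, 205 genes at an unadjusted p under 0.05), and the lowest adjusted p among the 5 was 0.0641 for Apoe, whose difference was 5.97, with 5.11 for Cst7. Without library 1, 334 genes were higher and 150 lower, and there tissue and batch cannot be told apart. The count also changed with batch as a term, which pairs gray and white matter of the same mice. That fit sets 1 library of each tissue in batch 1 against each other, with a spread from white matter libraries 2 and 3. All 5 genes kept their direction there (Apoe 5.84, Cst7 4.55, Cd52 1.746, Lyz2 1.81 and Hbb-bs -3.605). With total UMIs in place of TMM factors, Apoe alone stayed under 0.05, and the adjusted p was 0.204 for Cd52, 0.498 for Cst7 and Hbb-bs and 0.229 for Lyz2 (edgeR). DESeq2 gave no adjusted p for Cst7 and Hbb-bs, and without white matter library 2 the edgeR call of Lyz2 was lost (adjusted p = 0.101).

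The tissue difference of Activated cells was then set against that of Homeostatic cells in the same libraries. For none of 11011 genes did the Activated-to-Homeostatic ratio differ between white and gray matter in the edgeR interaction test, with 519 genes at an unadjusted p under 0.05, and DESeq2 called 0 genes as well, with 155 genes at an unadjusted p under 0.05. For Apoe, the interaction was 0.15 ± 0.40 (adjusted p = 0.968), and Homeostatic cells held 245 CPM in gray matter compared with 15302, 12054 and 10810 CPM in white matter. For Cst7 it was 2.94 ± 1.09 (adjusted p = 0.963), and Lyz2 gave 0.10 ± 0.33 (adjusted p = 0.9746). Leaving out white matter library 1 gave 58 genes higher and 46 lower.

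The Homeostatic class was made of different clusters in the 2 tissues. It held 1634 Homeostatic1 and 29 Homeostatic2 cells in gray matter, compared with 785 and 1884, 248 and 225, and 577 and 459 cells in white matter libraries 1, 2 and 3, so that its tissue contrast includes this composition. With Homeostatic1 alone as the reference, an alternative chosen after seeing the data, the edgeR interaction called 7 genes higher and 2 lower of 9779. Apoe was then at 230 CPM in gray matter and at 642, 996 and 841 CPM in the Homeostatic1 cells of white matter. Its interaction was 4.11 ± 0.29. Cst7 gave 5.01 ± 0.89, Cd52 1.73 ± 0.30 and Lyz2 1.52 ± 0.27. The result for these 4 genes thus depended on the Homeostatic cluster taken. WAM of the same libraries showed the gap of Apoe too, at 422 CPM in gray matter (27 cells) and at 41763, 42257 and 49592 CPM in white matter. The tissue difference was not tested in WAM. The interaction of Hbb-bs against Homeostatic1 was 0.53 ± 0.42. The Homeostatic clusters were themselves drawn on the expression of these genes, and gray matter is 1 library. The values against Homeostatic1 are therefore a description, given without p-values of single genes.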

How the data were processed

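Of the series' libraries, the 4 of Rag1-/- mice were used. The authors aligned reads to mm10 with Cell Ranger (version 4 per the labels; the methods give a later version for batch 2), filtered cells by genes, UMIs and mitochondrial RNA with limits that differed between batches, and deposited raw UMI counts of each gene in each cell. Cluster names were taken from the authors' deposited annotation of microglia. Counts came from the deposited table of all cell types (18886 genes), which holds all 326 Activated cells. Of the other microglia, 8 WAM and 1 Homeostatic2 cell are not in that table. A further 8171 cells of the annotation belong to 4 libraries outside the series and were left aside. No doublet caller was run.

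UMIs were summed per library and class and scaled to CPM by total UMIs. Log2 ratios used a pseudocount of 0.5 counts in each class. A gene counted as higher or lower when it differed at least 2-fold in the same direction in each of the 4 libraries, among genes with at least 20 UMIs over both classes. Values after ± are SDs over libraries, or standard errors for edgeR, where the log2 fold change was divided by the square root of F. Tissue tests used edgeR 4.0.16 under R 4.3.3 (filterByExpr, TMM, two-sided quasi-likelihood F test, Benjamini-Hochberg at 0.05); the interaction had the library as a block. DESeq2 1.42.0 was an alternative. Cell numbers per cluster were tested in the same way, without trend or TMM, with all microglia as the library size. Intervals of shares are exact Clopper-Pearson intervals at 95%. The scripts were tested on simulated data. The named genes were the 3 markers, list genes that passed, the 15 highest and 10 lowest against Homeostatic cells and 10 and 10 against WAM at 20 CPM or more, of which examples are given, and the 5 largest changes in each direction between tissues. The members and lists were chosen with earlier results of these data known. Libraries are the replicates. The p-values of edgeR rest on a spread between libraries whose estimate is shared across genes or clusters, so they do not measure the spread of a single gene. Neither the test of shares nor the main tissue test of Activated cells modeled the mice shared within batch 1. Values of some list genes are not reported here.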

Additional observations from a re-analysis of the deposited data

Results flagged for a closer look

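Median ratios of several gene lists had opposite signs in the gray matter library and in all 3 white matter libraries, where lists of at least 5 measured genes were considered. The difference of these medians between tissues was not tested, and no single gene was called in the edgeR interaction test against both Homeostatic clusters together (519 genes at an unadjusted p under 0.05, and 0 calls in DESeq2). Against Homeostatic cells, the interferon response list had a median log2 ratio of 0.58 in gray matter, against -0.27, -1.26 and -0.84 in white matter libraries 1, 2 and 3. For chemokine receptors the medians were 0.86 and -1.10, -1.01 and -1.21. For cytokines they were 0.29 and -0.32, -0.53 and -0.41. Against WAM, the interferon response list had 0.54 in gray matter compared with -0.15, -0.98 and -0.32 in white matter, and heat shock genes had 0.0133 and -0.54, -0.19 and -0.35. The gray matter values rest on 27 Activated cells, in which 4 of 23 interferon genes, 3 of 8 chemokine receptors and 7 of 11 cytokines measured against Homeostatic cells gave no UMI. With a pseudocount in proportion to the class totals, an alternative chosen after seeing the data, the gray matter medians against Homeostatic cells were -0.04, -1.23 and -3.83 for these 3 lists. Against WAM, the interferon median in gray matter was 0.53 under that setting, and that of heat shock genes was 0.00.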

How the results depend on the processing

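The list of ribosomal protein genes kept a positive median in every alternative run. Against Homeostatic cells its main value was 1.12, with 1.65 under TMM factors, 1.33 against Homeostatic1 alone, 0.86 against Homeostatic2 alone and 1.08 to 1.17 when a library was left out. Against WAM it was 0.83, with 1.20 under TMM factors and 0.74 to 0.86 without a library. Counts of genes depended far more on the setting. Against Homeostatic cells, 152 genes were higher and 420 lower, with 505 and 57 under TMM factors, 1704 and 77 with a pseudocount of 2 counts, 100 and 224 after thinning to 1000 UMIs, and 402 and 1587 at a fold limit of 1.5. The count of higher genes was 5567 without a filter on low counts and 6 against Homeostatic2 alone. Leaving out a library gave 97 to 210 higher and 522 to 1217 lower genes. A pseudocount in proportion to the class totals, chosen after seeing the data, gave 45 and 1619, and 41 genes with at least 20 CPM were higher. Against WAM, 12 were higher and 305 lower, with 65 and 114 under TMM factors, 25 and 98 with a pseudocount of 2 counts, 2 and 159 after thinning, 106 and 963 at a fold limit of 1.5, 6 and 484 with a proportional pseudocount, 16 to 43 and 423 to 668 without a library, 65 higher without a filter and 5 higher at 20 CPM. The cause was not tested.

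After thinning, of the genes named here, 1110038B12Rik, Ccl4, Ccr2, Cmya5, Fth1, Lgals3, P2rx7 and Rpl9-ps6 no longer passed the limit against Homeostatic cells, and Ank, Atf3, Axl, Ccl6, Crybb1, Cxcl10, Cxcl14, Egr1, Gbp7, Gng10, Il1b and Lst1 no longer passed it against WAM. Of the 77 ribosomal protein genes, 53 then passed it against Homeostatic cells and 0 against WAM.

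Several medians, and the ratio of Ccr2, changed sign under an alternative. Against Homeostatic cells, TMM factors gave 0.0263 for all genes and 0.23 for microglial markers, and a pseudocount of 2 counts gave 0.0365 for all genes, 0.23 for immediate early genes and 0.0786 for Ccr2, which gave 0.0291 after thinning. The chemokine median was -0.25 against Homeostatic2 alone and -0.26 with a proportional pseudocount, which also gave -0.21 for astrocyte and -2.08 for neuronal markers. Against WAM, thinning gave 0.0723 for cell cycle genes and -0.51 for astrocyte markers. Of 907 values under alternatives of named genes that had passed the 2-fold limit, 2 changed sign, both of Ccr2. Such genes held the same direction in every library beforehand, so a change of sign was unlikely. Among those left out was Il1b against Homeostatic cells. Against Homeostatic2 alone it was at -1.87 in gray matter and at -1.28, 0.35 and -0.60 in white matter libraries 1, 2 and 3.

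The share of Activated cells was higher in white matter by 2.30, with 2.32 in DESeq2 (adjusted p = 0.0615), 2.58 with Homeostatic and Activated cells as the denominator (adjusted p = 0.0582) and 1.58 to 2.68 without a white matter library (adjusted p of 0.105 to 0.130), so that the call was lost in each of these, and -0.0305 with TMM scaling. Between tissues, 4 genes were higher and 1 lower, with 10 and 0 in DESeq2, 27 and 7 without a filter, 1 and 0 with total UMIs, and 0 to 334 and 0 to 150 without a white matter library. The replicate block of the mice shared within batch 1, entered as a batch term, gave 71 and 6. Its pairing rests on the list of mice, which names the same animals for both libraries of that batch, and a single gray matter library leaves 1 pair. In the interaction, which called 0 genes, Homeostatic1 alone gave 7 higher and 2 lower, total UMIs gave 3 genes lower, and leaving out a white matter library gave 0 to 58 higher and 0 to 46 lower. The mean share of Activated cells with a UMI at 1000 UMIs was 5.55% for Ccl3, 3.99% for Ccl4 and 0.483% for Il1b. Without thinning Ccl3 was at 11.8% and Ccl4 at 6.98%, and at 2000 UMIs Ccl3 was at 8.39%. The ribosomal share per cell was 26.2% on average over the libraries and 29.2% in cells of 2000 to 4000 UMIs. The depth of 150233 UMIs in gray matter limits statements on genes below about 20 CPM.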
